A study of Mus musculus with 12 samples.

Results

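Rbm3 (RNA-binding motif protein 3) and Cirbp (cold-inducible RNA-binding protein) were followed across the cell types of the mouse hippocampus. They are 2 of the 32285 genes in the count matrix, and both were measured in every cell type. They were chosen by name, after earlier results of these data had shown Rbm3 higher in microglia and astrocytes of cisplatin mice. The values that chose them are therefore the differences between cisplatin and PBS mice, and these are given here as a description without a test.

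All mice were 9-week-old female C57/BL6J animals, and the labels name no engineered allele in any group. Cisplatin, a platinum drug that crosslinks DNA, was injected in the Cisplatin nonstim and Cisplatin stim groups. PBS (phosphate-buffered saline) was injected in the PBS nonstim and PBS stim groups. Both stim groups were also exposed for 1 h per day, over 21 days from the first injection, to light and sound at 40 Hz, which is meant to drive brain rhythms in the gamma range. Hippocampi were taken on day 22 after perfusion with an ice-cold buffer, and the dose of the drug is not stated in the labels. Each group had 3 libraries. Replicate 1 held 2 hippocampi of 1 animal, and replicates 2 and 3 each pooled 4 hippocampi of 2 animals, so single animals cannot be told apart in them. Replicate 1 of every group carries the prefix D20 and the others D21. The 4 D20 libraries are the first batch below, and the 8 D21 libraries the second.

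Rbm3 and Cirbp belong to 1 small family of proteins with a single RNA-recognition motif at the start and a glycine-rich tail. In mammalian cells both are best known for rising when temperature falls by a few degrees and for falling with heat, in opposition to the heat shock chaperones. They bind mRNA and influence its stability, translation and splicing, and Cirbp is also studied in the stress response to ultraviolet light and low oxygen. In the brain, Rbm3 is known for its links to synapse maintenance under cooling, and secreted Cirbp (extracellular CIRP) acts as an inflammatory signal on microglia.

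The sequences below show how alike the RNA-binding ends of these genes are, which matters for telling their counts apart. Rbm3 lies on chromosome X from 8138975 to 8145880, minus strand, and Cirbp on chromosome 10 from 80165985 to 80172786, plus strand (GRCm38, GENCODE M21). The stretches are the first 270 coding bases of Rbm3-201 and Cirbp-202, which have 462 and 516 coding bases in 5 and 6 coding exons. Capitals mark the bases of RNP1, the core of the RNA-recognition motif, at coding bases 139 to 162 in both.
Rbm3: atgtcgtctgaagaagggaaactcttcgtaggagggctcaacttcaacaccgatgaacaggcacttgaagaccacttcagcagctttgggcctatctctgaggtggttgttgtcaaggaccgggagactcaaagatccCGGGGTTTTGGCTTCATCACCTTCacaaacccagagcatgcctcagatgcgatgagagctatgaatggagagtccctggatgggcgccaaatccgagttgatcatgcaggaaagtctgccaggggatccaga
Cirbp: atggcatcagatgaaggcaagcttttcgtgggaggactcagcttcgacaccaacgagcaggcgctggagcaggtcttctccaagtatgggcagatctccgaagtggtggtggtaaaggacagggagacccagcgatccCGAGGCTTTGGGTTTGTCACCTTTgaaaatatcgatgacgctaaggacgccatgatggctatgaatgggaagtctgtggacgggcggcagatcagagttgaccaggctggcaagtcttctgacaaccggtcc
These stretches are identical at 184 of 270 bases (68.1%), and the RNP1 bases at 18 of 24 (75.0%). The annotated transcripts of the genes share 0 words of 31 bases with each other. Of the 31-base words of Rbm3, 9.753% occur in another gene and 7.606% in the pseudogene Rbm3-ps on chromosome 1. Of the words in the last 400 bases of its transcripts, near where 3' libraries take their reads, 0% do. Cirbp shares 0% of its words with any other gene. The antisense gene Rbm3os, which overlaps the start of Rbm3 on the opposite strand, gave 45 UMIs (unique molecular identifiers) in all cells, against 27786 for Rbm3 and 14635 for Cirbp.

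The RefSeq promoter table (GRCm38.p6) has 2 windows for Cirbp, each from 250 bases before to 50 after a transcript start, and Rbm3 was not matched. The bases before the earlier start, chr10:80167589-80167838 on the plus strand, are shown because they hold the mild cold response element of Cirbp, TCCCCGCC, in capitals.
Cirbp upstream: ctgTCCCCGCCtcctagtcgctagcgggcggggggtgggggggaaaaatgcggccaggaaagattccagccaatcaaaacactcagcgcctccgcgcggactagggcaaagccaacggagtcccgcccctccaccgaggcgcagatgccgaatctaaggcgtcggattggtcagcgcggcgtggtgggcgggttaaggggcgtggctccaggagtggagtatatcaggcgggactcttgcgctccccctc
The element starts at base 4 and was found once on either strand, while 5.38% of 32851 promoter windows of this length hold it. The window that follows, chr10:80167921-80168220, holds 0 copies. Neither window holds TTCNNGAA or GAANNTTC, the paired units of a heat shock element, or the single site TGTTCT of the glucocorticoid receptor. They occur in 8.52%, 7.86% and 18.97% of the promoter windows.

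Levels are UMIs of the gene per 1000000 UMIs of that cell type in a library, called CPM here. The 12 libraries held 19834 cells, 611 to 2772 each, with 3964338 to 17656020 UMIs. The authors' 12 cell types were used as deposited, and 5 fixed markers per type were highest in their own type, except Stmn2 of the neurons and Pdgfra of the fibroblasts. The median mitochondrial share of a cell's UMIs was 10.7 to 17.6% in first-batch libraries and 3.19 to 5.12% in second-batch ones. Ribosomal RNA-like transcripts (Gm42418, AY036118 and Lars2) made up 1.87 to 3.65% of UMIs in second-batch PBS libraries and 0.34 to 0.782% in the other 8. Across libraries, 56 cell barcodes occurred in more than 1. Libraries with under 10 cells of a type were left out of that type, and 9 types in which each group kept 2 or more libraries were compared between groups.

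Without drug or stimulation (PBS nonstim), Rbm3 was highest in progenitors, the type with the highest Sox11 and Dcx, markers of young neurons. Their 3 libraries had 413, 498 and 443 CPM of Rbm3 (451 ± 43.0, SD, n = 3), above every library of the other types except 1 choroid plexus library at 415. Endothelium (239 ± 56.8), choroid plexus (229.9 ± 163), pericytes (208 ± 32.2) and immune cells (201 ± 57.5) followed, and neighbours in this order overlapped. Microglia at 149 ± 21.3, ependymal cells at 147 ± 25.5, oligodendrocyte precursors (OPCs) at 124 ± 37.3 and neurons at 112 ± 29.2 came next. Oligodendrocytes at 83.9 ± 27.0 and astrocytes at 69.6 ± 8.35 had the lowest Rbm3, again with overlapping ranges. In the choroid plexus 1 first-batch library, made from 29 cells, had 415 CPM, against 105 and 170 in the second batch. The authors' choroid plexus clusters differed too, with 300 ± 123 CPM in cluster 3 (n = 3) and 84.9 ± 26.1 in cluster 4 (n = 2). The part of the cluster mix in the wide spread was not tested.

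Cirbp had another order. Progenitors were again highest in PBS nonstim, with 248, 213 and 181 CPM (214 ± 33.4, SD, n = 3), and OPCs second with 147 ± 28.9. Neither range overlapped the next one down, though the OPC libraries (116 to 174) overlapped those of pericytes (up to 139) and ependymal cells (up to 119). Astrocytes (106 ± 4.74), oligodendrocytes (91.4 ± 12.1), neurons (87.2 ± 14.2), pericytes (84.6 ± 47.5) and endothelium (76.1 ± 14.9) lay close together and overlapped from neighbour to neighbour. Ependymal cells (73.6 ± 39.1), microglia (65.7 ± 10.8), choroid plexus (54.0 ± 15.6) and immune cells (53.5 ± 22.7) were lowest. Astrocytes were thus last of 11 types for Rbm3 and ranked 3 for Cirbp. Across the 12 types, averaged over the libraries of all groups and not PBS nonstim alone, the mean log2 levels of these genes had a Pearson r of 0.25. This is a description over types that share libraries and depth. Fibroblasts enter it from cisplatin libraries alone, so the drug groups are not balanced over types.

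**Figure D1:**
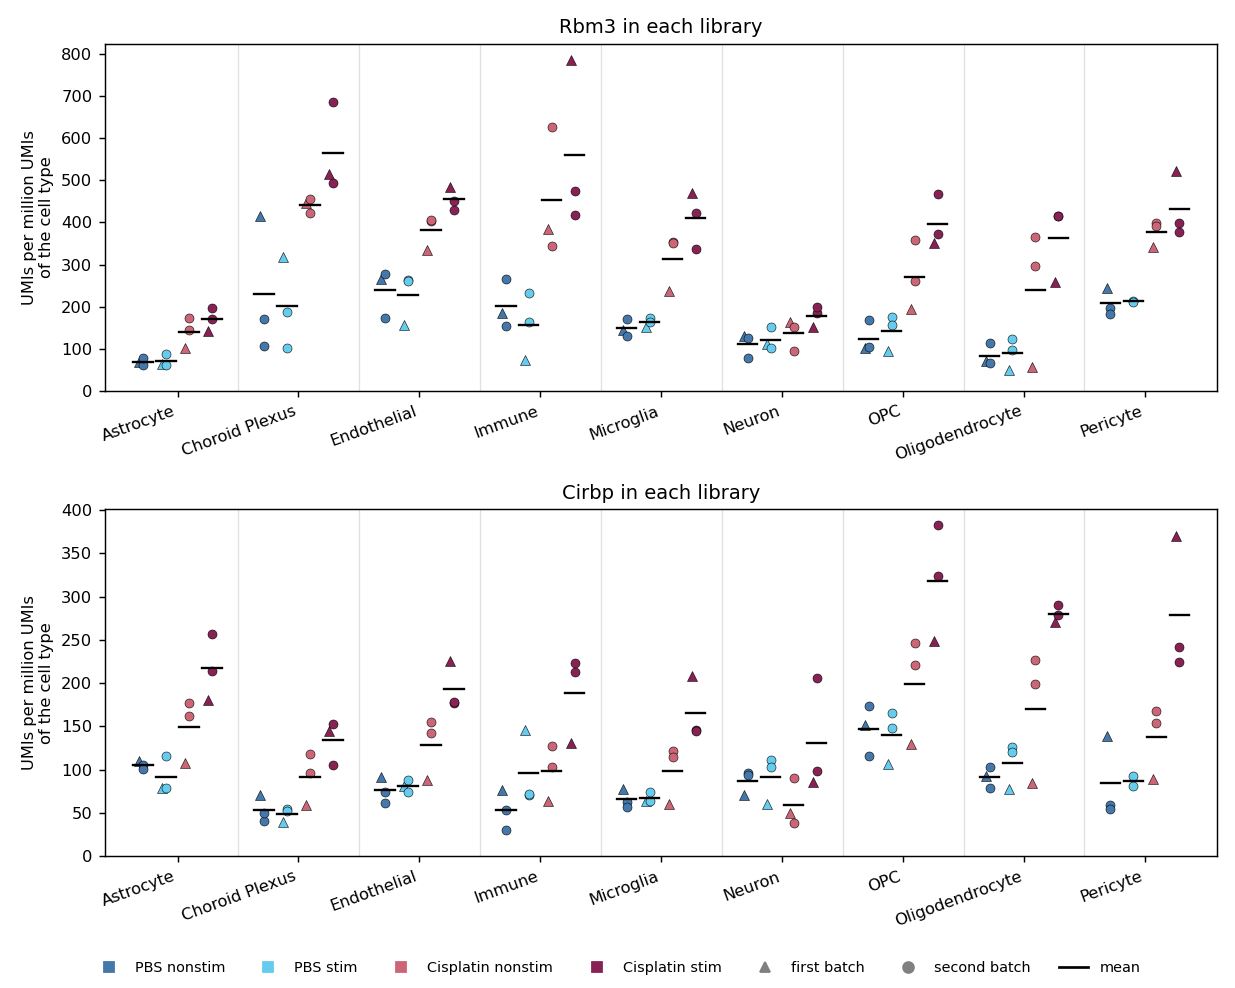
Rbm3 (top) and Cirbp (bottom) in CPM of the cell type on a linear axis from 0, 1 point per library with at least 10 cells, for the 9 types compared. Colours are the 4 groups, triangles the first batch, circles the second and bars the group means; Cisplatin stim libraries lie above all PBS stim libraries for Rbm3 in every type, and the Cisplatin nonstim triangle of oligodendrocytes lies at 56.0 for Rbm3.

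The comparison of Cisplatin nonstim with PBS nonstim asks what the drug left in unstimulated mice. Rbm3 stood higher in cisplatin mice in all 9 types. In microglia, the resident immune cells of the brain, it was 144, 130.0 and 172 CPM in the PBS libraries (replicates 1 to 3) and 238, 354 and 351 in the cisplatin libraries. The groups do not overlap, and the log2 fold difference from the edgeR model was 1.07 ± 0.15 (SE). In astrocytes, the PBS libraries had 67.4, 62.5 and 78.8 CPM and the cisplatin libraries 102, 173 and 145, a log2 difference of 0.99 ± 0.16. The lowest cisplatin library, replicate 1, was still above every PBS library in both types.

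The other types gave Rbm3 log2 differences of 1.34 ± 0.33 in choroid plexus, 1.18 ± 0.18 in OPCs, 1.10 ± 0.37 in immune cells, 0.88 ± 0.18 in pericytes and 0.66 ± 0.17 in endothelium. In each of these the 3 cisplatin libraries lay above the 3 PBS libraries. Oligodendrocytes, the myelin-forming cells, had the largest fitted difference, 1.37 ± 0.28, and yet their groups overlap. Their PBS libraries had 71.7, 65.2 and 115 CPM, and the cisplatin libraries 56.0, 366 and 298. Neurons had the smallest, 0.63 ± 0.28, from 130.3, 78.0 and 127 to 165, 153 and 95.7 CPM. Over the 9 types the median was 1.07. The groups were separate in 7 of 9 types. Among all 69488 gene and type pairs, 6.17% were separate in this direction, 1.64% were called at an adjusted p under 0.05 in either direction, and the median difference was 0.00. Since this comparison chose Rbm3, nothing is read from its count.

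Cirbp was higher in 8 of 9 types in the same comparison, and the libraries were separate in 0. Oligodendrocytes had 92.3, 79.0 and 103 CPM of Cirbp in PBS and 84.9, 227 and 199 in cisplatin libraries (log2 difference 0.89 ± 0.18). Microglia had 77.8, 62.4 and 57.0 against 59.9, 121 and 115 (0.63 ± 0.18). In both types replicate 1 of the cisplatin group lay within the PBS range and the other 2 above it. The difference was 1.04 ± 0.27 in choroid plexus, 0.88 ± 0.30 in pericytes, 0.82 ± 0.40 in immune cells, 0.75 ± 0.19 in endothelium and 0.45 in both astrocytes (± 0.16) and OPCs (± 0.18). Neurons were the exception, with -0.22 ± 0.30 from 70.8, 96.5 and 94.3 to 49.9, 90.1 and 38.3 CPM. Their cisplatin values rest on 8 to 23 UMIs of Cirbp per library. The authors' neuron clusters are also filled differently. Cluster 19, with 191 ± 121 CPM of Cirbp in PBS nonstim (n = 3), had 10 or more cells in 1 Cisplatin nonstim library, at 173 CPM. In cluster 12 the mean Cirbp level was 76.5 ± 26.8 CPM in Cisplatin nonstim and 60.4 ± 22.3 in PBS nonstim, and in cluster 10 it was 32.2 ± 31.5 and 56.9 ± 28.2 (SD, n = 3 each). The groups overlap in both clusters.

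Under stimulation, cisplatin mice were compared with PBS mice in the other 6 libraries. Rbm3 was higher in 9 of 9 types, with every Cisplatin stim library above every PBS stim library in 9 of 9. Oligodendrocytes had 49.5, 124 and 96.4 CPM in PBS stim and 259, 416 and 415 in Cisplatin stim, a log2 difference of 2.08 ± 0.29. Choroid plexus followed with 1.94 ± 0.34, immune cells with 1.77 ± 0.40, OPCs with 1.52 ± 0.19, microglia with 1.31 ± 0.16 and astrocytes with 1.26 ± 0.17. Endothelium (0.97 ± 0.18), pericytes (0.95 ± 0.21) and neurons (0.94 ± 0.28) had the smallest. Pericytes rest on 2 PBS stim libraries, since replicate 1 had 5 cells and was left out. The PBS stim value of immune cells in replicate 1, 72.8 CPM, rests on 2 UMIs.

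Cirbp was also higher in 9 of 9 types under stimulation, and the libraries were separate in 7. Its oligodendrocyte values were 77.8, 126 and 120.2 CPM in PBS stim and 271, 279 and 289.7 in Cisplatin stim, a log2 difference of 1.41 ± 0.19. The largest was 1.61 ± 0.26 in choroid plexus, followed by 1.56 ± 0.32 in pericytes. Immune cells (1.36 ± 0.38), astrocytes (1.24 ± 0.16), microglia (1.24 ± 0.20), endothelium (1.24 ± 0.21), OPCs (1.20 ± 0.20) and neurons (0.89 ± 0.28) completed the range. Immune cells and neurons were the types whose libraries overlap. In immune cells the highest PBS stim library, replicate 1 at 146 CPM, rests on 4 UMIs of Cirbp. Among all pairs, 7.88% were separate in this direction and 3.89% were called at an adjusted p under 0.05. This contrast is likewise a description, since it also sets cisplatin against PBS. Whether it was in view when the genes were chosen is not recorded.

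**Figure D2:**
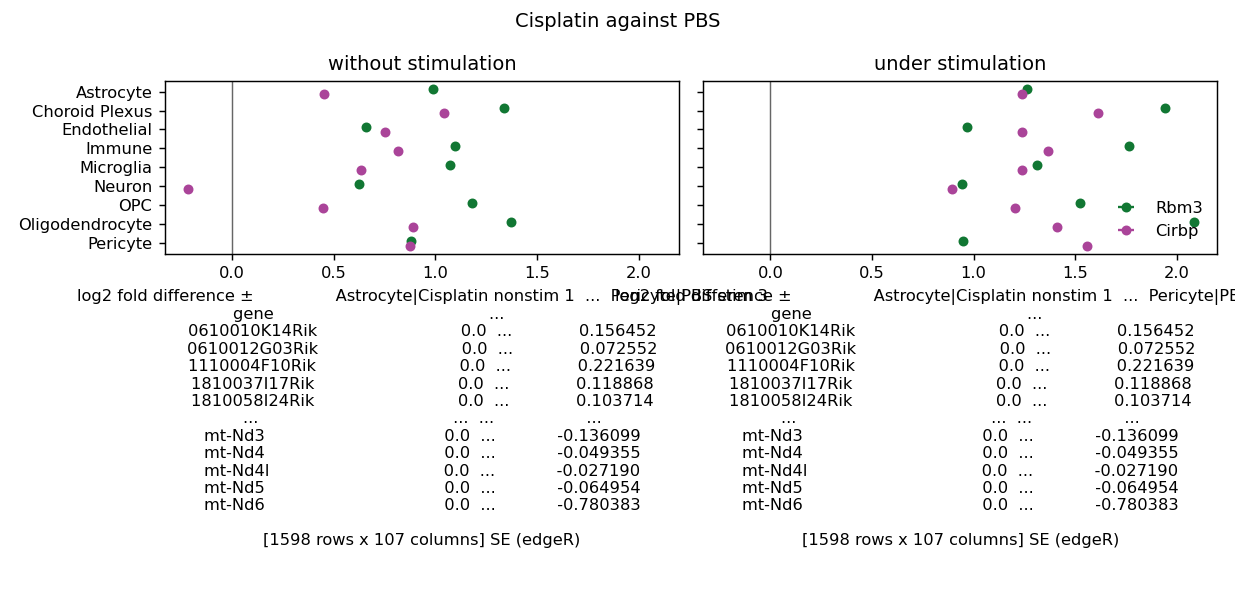
Log2 fold difference of Rbm3 (green) and Cirbp (purple) between cisplatin and PBS mice in 9 cell types, without stimulation (left) and under it (right). Points are edgeR estimates, and no error bars are drawn. All 9 Rbm3 points are above 0 in both panels, and neurons are the type with Cirbp below 0, at -0.22, without stimulation.

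Within the second batch alone, 2 libraries against 2, the direction was the same in 17 of 18 gene and type pairs without stimulation and in 18 of 18 under it. The median over types without stimulation was 1.16 for Rbm3 and 1.08 for Cirbp, against 1.07 and 0.75 in all libraries. The first batch has 1 library per group and gives ratios without a test. There Rbm3 was higher in Cisplatin nonstim than in PBS nonstim in 8 of the 9 types, and lower in oligodendrocytes (ratio 0.781), while Cirbp was lower in all 9, with ratios from 0.643 in pericytes to 0.971 in astrocytes. Under stimulation the first batch had Rbm3 ratios of 1.37 to 10.8 in the 8 types with both libraries. Cirbp ratios were 1.43 to 3.63 in 7 of them, with 0.90 in immune cells. The immune ratios, 10.8 for Rbm3 and 0.90 for Cirbp, rest on 2 and 4 UMIs in the PBS stim library. The ribosomal RNA-like share also moved with the drug in the second batch. With that share in the model, the Cirbp median without stimulation was 0.41 and that of Rbm3 1.18, and its part in the differences was not tested further.

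Cisplatin nonstim replicate 1 thus stood apart from the 2 other libraries of its group. Its mean Cirbp level over the 9 types differed from the PBS nonstim mean by -0.02 on the log2 scale, against 0.84 and 0.74 in replicates 2 and 3. For Rbm3 the same index was 0.60, against 1.27 and 0.97. The 3 Cisplatin stim libraries lay between 1.27 and 1.35 for Cirbp and between 1.35 and 1.37 for Rbm3, replicate 1 included. PBS stim libraries lay between -0.05 and 0.20 for Cirbp and between -0.30 and 0.23 for Rbm3. Without Cisplatin nonstim replicate 1, the median difference of Cisplatin nonstim from PBS nonstim was 1.06 for Cirbp and 1.22 for Rbm3.

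The low oligodendrocyte values of that library were present in each of the authors' oligodendrocyte clusters it filled. For Rbm3 it had 72.2 CPM in cluster 2, 32.1 in cluster 7 and 45.1 in cluster 8, where replicates 2 and 3 of its group lay between 278 and 377. Cluster 11 holds 10 or more cells only in first-batch libraries. There Rbm3 was 78.1 CPM in PBS nonstim, 49.0 in PBS stim, 65.5 in Cisplatin nonstim and 309 in Cisplatin stim. Cirbp in cluster 11 was 99.2, 94.7, 106 and 299.6 CPM in the same order. In the first batch, then, the Cisplatin stim library alone had raised values of both genes in this cluster, 1 library per group and without a test.

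**Figure D3:**
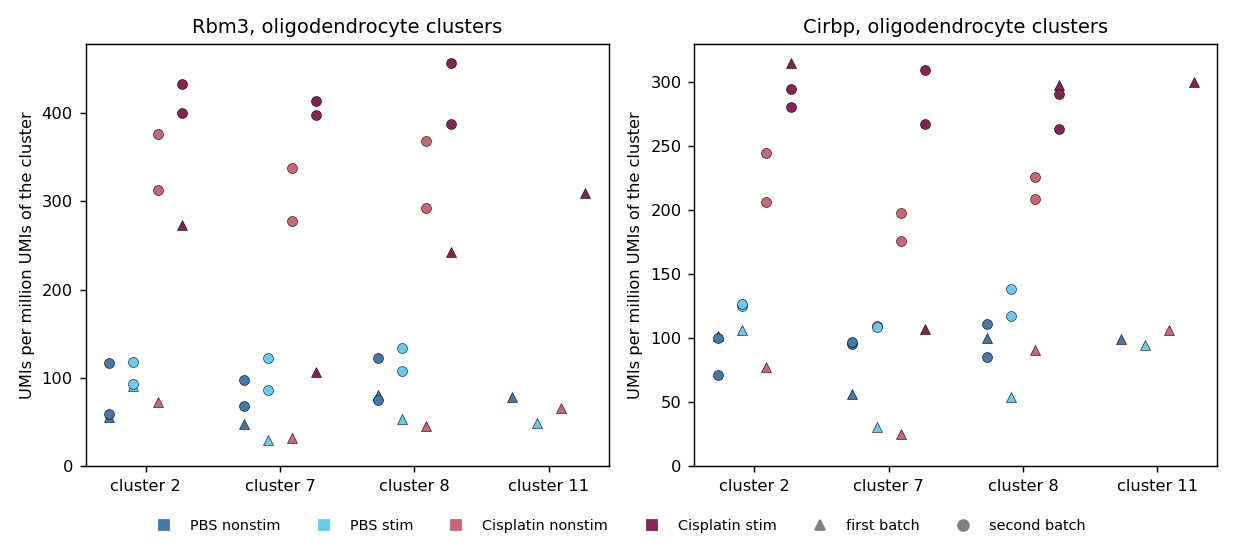
Rbm3 (left) and Cirbp (right) in the authors' 4 oligodendrocyte clusters, in CPM of the cluster on a linear axis from 0, 1 point per library with at least 10 cells. In clusters 2, 7 and 8 the Cisplatin nonstim triangle (first batch) lies within or below the PBS points, whereas the 2 circles of that group lie above them; cluster 11 has triangles only, with Cisplatin stim at 309 for Rbm3.

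The authors split microglia into 2 clusters, and the group means had the same order in both. In the larger, cluster 0, Rbm3 was 153 ± 13.7 CPM in PBS nonstim, 160.0 ± 3.01 in PBS stim, 325 ± 57.5 in Cisplatin nonstim and 433 ± 98.6 in Cisplatin stim (SD, n = 3 each). In cluster 5 the corresponding values were 132 ± 46.0, 169.6 ± 44.4, 258 ± 119.7 and 326 ± 28.7. Cirbp in cluster 0 was 58.5 ± 13.4, 60.8 ± 6.95, 90.9 ± 28.0 and 149 ± 22.7. These clusters rest on all genes of these cells, so they were not compared with each other.

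The types with too few libraries gave values only. Cisplatin nonstim ependymal cells had 195, 212 and 250 CPM of Rbm3 against 133, 132 and 177 in PBS nonstim, and the groups do not overlap. Their Cirbp values, 84.7, 106 and 118 against 48.5, 119 and 53.6, do. Progenitors of Cisplatin nonstim had 833 CPM of Rbm3 and 416 of Cirbp in the 1 library with 10 or more cells. These lie above the highest PBS nonstim values of 498 and 248, but rest on 14 UMIs of Rbm3 and 7 of Cirbp. PBS nonstim libraries of progenitors held as few as 10 and 6. Fibroblasts of PBS mice had under 10 cells in every library.

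The comparison of Cisplatin stim with Cisplatin nonstim asks what the stimulation changed in drug-treated mice, and it was not the comparison in which Rbm3 was first noted. It shares the Cisplatin nonstim and Cisplatin stim libraries with the drug comparisons, so their values are not independent. Which other comparisons were in view when the pair was chosen is not recorded. Cirbp was called in 1 of 9 types, where 0.196% of all gene and type pairs were called. In oligodendrocytes it rose from 84.9, 227 and 199 to 271, 279 and 289.7 CPM, by 0.76 ± 0.18 in log2 (edgeR adjusted p = 0.0381). All 3 stimulated libraries lay above the 3 unstimulated ones. The call was lost in 8 of the 12 fits that left out 1 library (edgeR adjusted p 0.0533 to 0.224). These were the fits without Cisplatin nonstim replicate 1 (0.46 ± 0.14) or 3, any of the 3 Cisplatin stim libraries, PBS nonstim replicate 3, or PBS stim replicate 2 or 3. It was also lost in the second batch alone (0.43 ± 0.11, edgeR adjusted p = 0.069), without a batch term (0.72 ± 0.22, edgeR adjusted p = 0.387), without cells over 10% mitochondrial UMIs (0.64 ± 0.15, edgeR adjusted p = 0.0526) and in the fit paired by a replicate block (0.76 ± 0.18, edgeR adjusted p = 0.0603). DESeq2 (adjusted p = 0.00574) and limma-voom (adjusted p = 0.0345) kept it.

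Cirbp did not pass the adjusted threshold in the other 8 types, and its values were positive in all of them with an unadjusted p between 0.000509 and 0.04, where 6.66% of all pairs had one under 0.05. The differences were 1.18 ± 0.30 in neurons, 1.13 ± 0.35 in immune cells, 0.96 ± 0.26 in pericytes, 0.71 ± 0.19 in OPCs and 0.68 ± 0.18 in microglia. Endothelium (0.59 ± 0.18), astrocytes (0.56 ± 0.15) and choroid plexus (0.53 ± 0.23) were lowest. Microglia, for example, went from 59.9, 121 and 115 to 208, 145 and 145 CPM, and pericytes from 89.7, 154 and 168 to 369.9, 242 and 225. The stimulated libraries lay above all unstimulated ones in 7 of 9 types, where 4.7% of all pairs did. The types come from the same libraries, here and in the other comparisons, so counts of types are not counts of independent observations. Without Cisplatin nonstim replicate 1 the median difference fell from 0.71 to 0.46, and 7 of 9 types kept an unadjusted p under 0.05.

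Rbm3 was called in 0 of 9 types by edgeR, DESeq2 and limma-voom alike. Its unadjusted edgeR p was under 0.05 in 3 types: OPCs (0.58 ± 0.17), oligodendrocytes (0.77 ± 0.26, with the smallest adjusted p, 0.218, by edgeR) and microglia (0.38 ± 0.15). All 9 differences were positive, from 0.16 ± 0.17 in pericytes to 0.77 in oligodendrocytes, and the libraries were separate in choroid plexus and endothelium. OPCs went from 195, 359 and 261 to 351, 372 and 467 CPM of Rbm3, with overlapping groups. Without Cisplatin nonstim replicate 1 the median over types fell from 0.38 to 0.21, the oligodendrocyte difference was 0.32, and the pericyte value was -0.020. In immune cells the value was 0.43 ± 0.36, and -0.044 without Cisplatin stim replicate 1, the library at 787 CPM.

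In PBS mice, where the same stimulation was given without the drug, neither gene was called in any type by edgeR, DESeq2 or limma-voom, and 0 of 18 pairs had an unadjusted edgeR p under 0.05. Of all gene and type pairs there, 0% were called and 2.87% had an unadjusted edgeR p under 0.05. Rbm3 differed by -0.26 ± 0.34 in choroid plexus to 0.24 ± 0.20 in OPCs, with a median of 0.05, and Cirbp by -0.23 ± 0.16 in astrocytes to 0.58 ± 0.43 in immune cells, with a median of 0.07. In oligodendrocytes the interval of the Cirbp difference (1.96 SE) ran from -0.13 to 0.62, and that of Rbm3 from -0.54 to 0.64. Microglia had 144, 130.0 and 172 CPM of Rbm3 without stimulation and 153, 173 and 164 with it.

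The difference between these stimulation effects was tested as an interaction, which was added after the data were seen. Neither gene was called in any type by edgeR, DESeq2 or limma-voom, and 0.0245% of all pairs were called. An unadjusted edgeR p under 0.05 was found in 4.88% of all pairs. For Cirbp the interaction was positive in 9 of 9 types, from 0.48 ± 0.29 in endothelium to 1.11 ± 0.41 in neurons, with an unadjusted p under 0.05 in astrocytes, microglia, neurons and OPCs (adjusted p 0.687 to 1, edgeR). Without Cisplatin nonstim replicate 1 the median fell from 0.61 to 0.26. In the second batch alone it was 0.15, with 7 of 9 types positive. For Rbm3 the interaction was positive in 9 of 9 types with a median of 0.32, and 0 types had an unadjusted edgeR p under 0.05. Without Cisplatin nonstim replicate 1 it was positive in 8 of 9 types (median 0.22), and in the second batch alone in 6 of 9 (median 0.093). A stimulation effect that differs between cisplatin and PBS mice was thus not called for either gene.

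**Figure D4:**
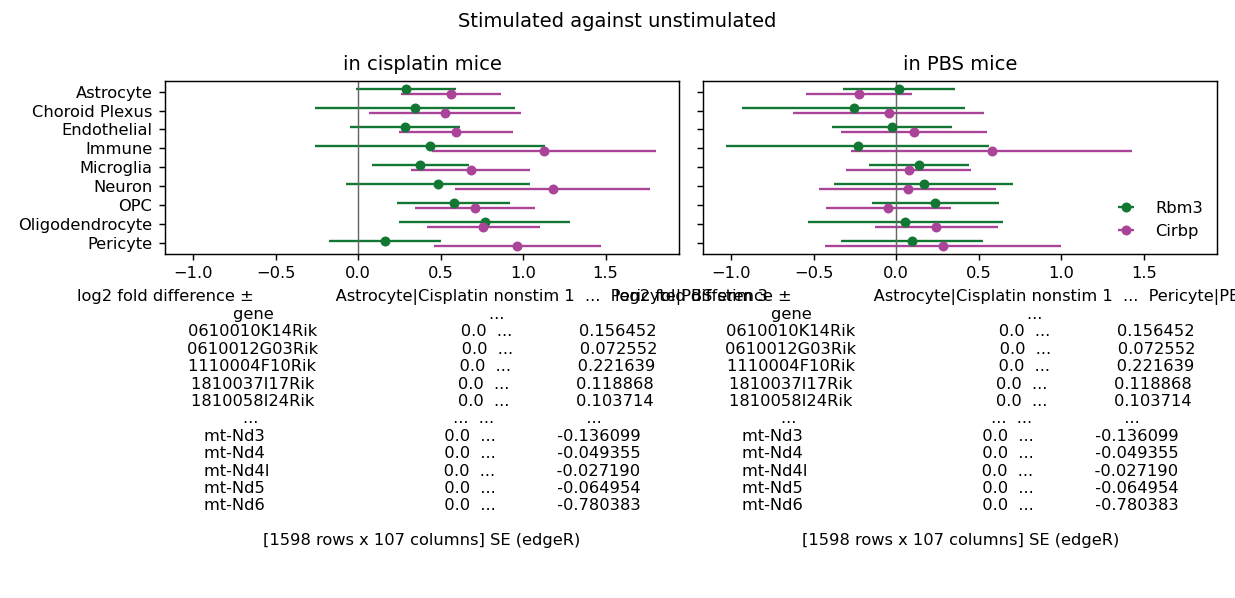
Log2 fold difference of Rbm3 (green) and Cirbp (purple) between stimulated and unstimulated mice in 9 cell types, in cisplatin mice (left) and PBS mice (right); points are edgeR estimates and bars 1.96 SE. All 18 points are above 0 at the left and 12 of 18 at the right, and the 1 called pair is Cirbp in oligodendrocytes at the left.

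Of the 18 pairs of gene and type 1 was called between the first and the second batch, where 8.61% of all pairs were. Rbm3 was lower in oligodendrocytes of the first batch by a log2 difference of -0.998 ± 0.23 (edgeR adjusted p = 0.00655), and the 4 first-batch libraries had 71.7 (PBS nonstim), 49.5 (PBS stim), 56.0 (Cisplatin nonstim) and 259 CPM (Cisplatin stim). Without Cisplatin nonstim replicate 1 the difference was -0.56 ± 0.16 and was still called (edgeR adjusted p = 0.0379). Cirbp was called in 0 types by edgeR, DESeq2 or limma-voom. Its unadjusted edgeR p was under 0.05 in 3 types, where 21.1% of all pairs had one. The first batch has the higher mitochondrial share given above, and without cells over 10% mitochondrial UMIs the Rbm3 difference in oligodendrocytes was -0.92 ± 0.22.

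Over the libraries of the 9 types, centred within type and batch, each of the 2 genes had the other as the most similar of 1597 genes tested in every type. The Pearson r was 0.76 over 107 points that share libraries, depth and the group differences described above. After Cirbp, the genes most like Rbm3 were Gapdh, a glycolytic enzyme (0.67), the translation initiation factor subunit Eif3f (0.67), the aldehyde reductase Akr1a1 (0.66) and the corepressor Sin3b (0.64). Those most like Cirbp were the glycolytic enzyme Gpi1 (0.65), Eif3f (0.65), the transcription factor Klf13 (0.64) and Sin3b (0.63). With the group means also removed, r was 0.48, and among all 1597 genes, predicted ones included, Cirbp ranked 5 for Rbm3 whereas Rbm3 ranked 110 for Cirbp. First-batch points are then all 0, since each group has 1 library there. Across the 12 types, averaged over the libraries of all groups, the pair was far less alike, with ranks 2047 and 4531 among 14520 genes. Rbm3 followed the ribosomal protein genes Rpl15 (0.96) and Rpl24 (0.93) with Naca (0.93) and Eif3e (0.93), and Cirbp followed Kif18a (0.93), Rbm4b (0.92), Cr2 (0.89), Wdr70 (0.89) and Cip2a (0.88).

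Related genes were followed in 5 lists of 63 genes in all, chosen with earlier results of these data known. The heat shock chaperones, which refold proteins and are known to respond to temperature in the opposite direction, were mostly lower in cisplatin mice. Without stimulation 129 of 161 gene and type pairs were negative (median -0.26), while 34734 of all 69488 pairs were positive. Of the 161 chaperone pairs 4 (2.48%) were called, all lower, near the 1.64% called among all pairs. The small heat shock protein Cryab fell in oligodendrocytes from 4077 ± 506 to 2563 ± 259 CPM, by 0.63 ± 0.10 in log2 (edgeR adjusted p = 0.00127). Hspb1 fell in endothelium by 0.76 ± 0.16 (edgeR adjusted p = 0.019), from 2650 ± 715 to 1743 ± 1126 CPM with overlapping libraries. In microglia Hsph1 fell by 0.96 ± 0.25 and the co-chaperone Dnajb1 by 0.48 ± 0.13 (edgeR adjusted p = 0.032 and 0.0422). These calls moved with the libraries: 13 chaperone pairs were called without Cisplatin nonstim replicate 1, 17 without PBS nonstim replicate 1, 38 in the second batch alone (34 lower) and 1 without any one of the other 4 libraries compared, where Hspb1, Hsph1 and Dnajb1 were all lost. Dnajb1 was also lost without PBS stim replicate 3. With the ribosomal RNA-like share in the model 1 was called, and 121 of 161 pairs stayed negative.

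Under stimulation 136 of 161 chaperone pairs were negative in cisplatin against PBS mice (median -0.32), and 13 (8.07%) were called, all lower, where 3.89% of all pairs were. In oligodendrocytes Cryab fell by 1.11 ± 0.10 (edgeR adjusted p = 6.08e-07), the Hsp90 co-chaperone Chordc1 by 0.94 ± 0.15, Hspa4l by 0.93 ± 0.21 and Hsp90ab1, the constitutive Hsp90, by 0.57 ± 0.10. In microglia Cacybp fell by 0.83 ± 0.16 and the constitutive Hsp70 gene Hspa8 by 0.56 ± 0.13, and in endothelium Hspd1, the mitochondrial chaperonin, fell by 0.87 ± 0.23 (edgeR adjusted p = 0.00308, 0.0144 and 0.0436). Leaving out 1 library ended none of these calls in oligodendrocytes nor that of Cacybp. It ended that of Hspa8 without Cisplatin stim replicate 2 or PBS stim replicate 2 (edgeR adjusted p 0.117 and 0.0929). That of Hspd1 was lost in 6 of 12 such fits (edgeR adjusted p 0.0517 to 0.38), namely without replicate 2 or 3 of either stimulated group or replicate 3 of either unstimulated one. Stimulation in cisplatin mice gave 2 calls (1.24% of the 161 pairs, against 0.196% of all pairs), both in oligodendrocytes: Chordc1 fell from 58.8 ± 3.03 to 34.0 ± 2.39 CPM, by 0.80 ± 0.14 (edgeR adjusted p = 0.00682), and Cryab from 2563 ± 259 to 1855 ± 268 CPM, by 0.49 ± 0.10 (edgeR adjusted p = 0.0194). Neither was called without Cisplatin nonstim replicate 1, and Cryab was also lost without Cisplatin nonstim replicate 3 or Cisplatin stim replicate 2 or 3 (edgeR adjusted p 0.0527 to 0.122 over these 4 fits). In PBS mice 0 of 161 pairs were called by edgeR, and 2 had an unadjusted p under 0.05. The list also differed between batches, with 31 pairs higher and 3 lower in the first (21.1% of the 161, against 8.61% of all pairs).

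**Figure D5:**
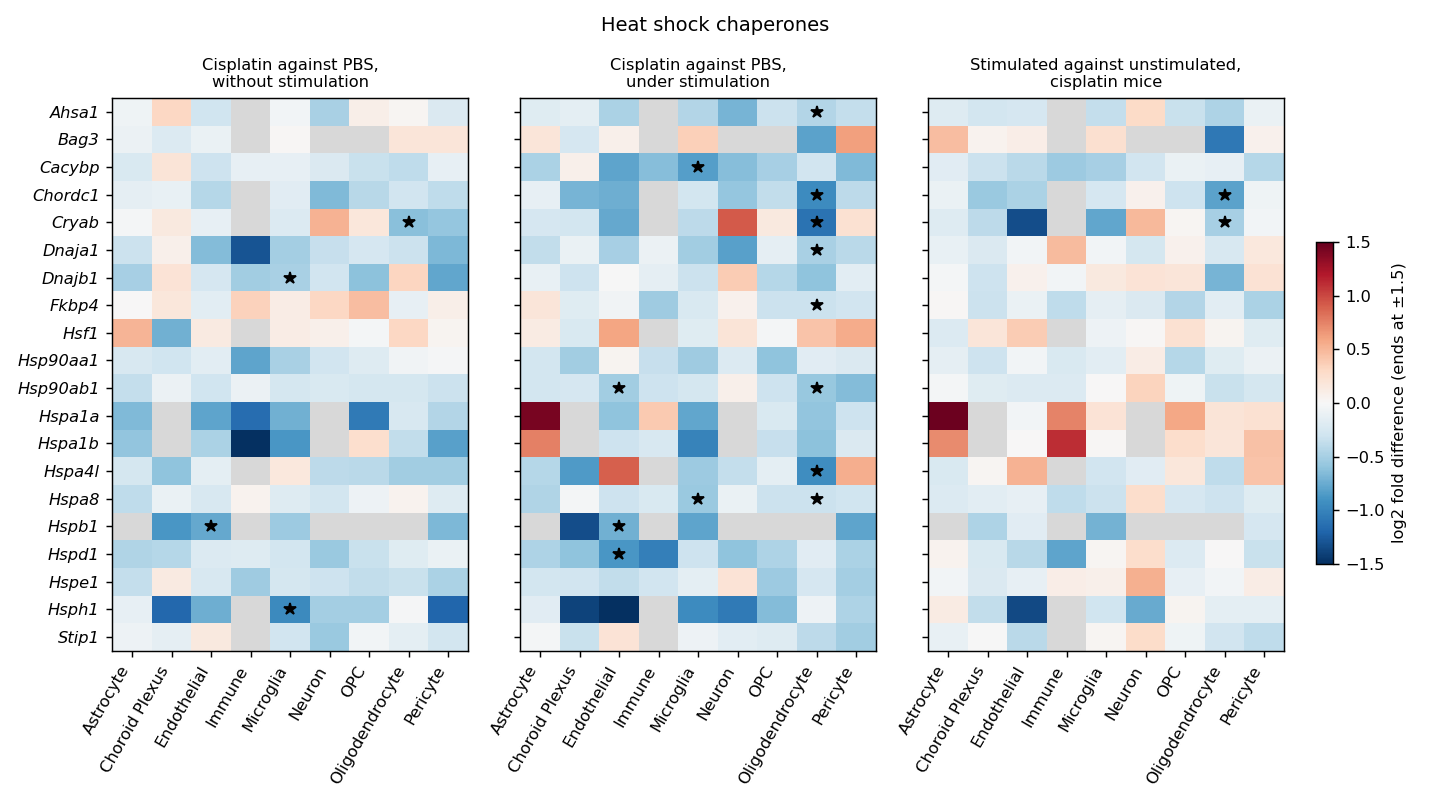
Log2 fold differences of 20 heat shock chaperone genes (rows) in 9 cell types (columns) for 3 comparisons, with colours that end at 1.5 in either direction, grey for pairs not tested and stars for pairs called at an edgeR adjusted p under 0.05. Blue (lower) fills most of the first 2 panels, 129 and 136 of 161 pairs, and all 4, 13 and 2 stars are on lower values.

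The list of upstream factors holds the Clk kinases and SR proteins of temperature-sensitive splicing with Hnrnph1, Sp1 and Hif1a. Of 127 pairs 1 (0.787%) was called without stimulation and 2 (1.57%) under it, below the 1.64% and 3.89% of all pairs. The median differences were 0.02 and 0.01. All 3 calls were higher values of the SR protein gene Srsf2. In oligodendrocytes Srsf2 rose from 206 ± 40.1 to 299 ± 10.9 CPM without stimulation (0.60 ± 0.10 on the log2 scale, edgeR adjusted p = 0.00114) and by 0.71 ± 0.10 under it (edgeR adjusted p = 6.75e-05). With the ribosomal RNA-like share in the model, the first of these was not called (0.52, edgeR adjusted p = 0.108). In endothelium it rose by 0.69 ± 0.16 under stimulation (edgeR adjusted p = 0.0227), with overlapping libraries. This call was lost without Cisplatin stim replicate 1 or 2 or any of the 3 PBS stim libraries (edgeR adjusted p 0.0615 to 0.147).

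Other proteins with RNA-recognition motifs, such as the hnRNP proteins and Pabpc1, had differences centred near 0. Of 139 pairs 0 were called without stimulation by edgeR, DESeq2 and limma-voom, 12 (against 14.5% of all pairs) had an unadjusted edgeR p under 0.05, and 69 were positive with a median of 0.00. Rbmxl1 had the smallest p, with 0.92 ± 0.30 in choroid plexus (edgeR adjusted p = 0.118), followed by the same gene with 0.28 ± 0.11 in microglia (edgeR adjusted p = 0.141). Under stimulation Hnrnpa2b1 fell in oligodendrocytes by 0.40 ± 0.11 (edgeR adjusted p = 0.0227), the 1 call of the list (0.719%, against 3.89% of all pairs). It was lost without Cisplatin stim replicate 1 or PBS stim replicate 1 (edgeR adjusted p 0.119 and 0.128).

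Among reported targets and effectors, 1 of 51 pairs (1.96%) was called without stimulation, a share near the 1.64% of all pairs, and 1 under it, below the 3.89% of all pairs. The first was Vegfa, the endothelial growth factor, which fell in microglia from 7.68 ± 1.40 to 2.02 ± 1.18 CPM, by 1.94 ± 0.50 (edgeR adjusted p = 0.0303). The Cisplatin nonstim level is low and rests on few UMIs of Vegfa per library. This call was lost without replicate 2 or 3 of either group compared (edgeR adjusted p 0.0846 to 0.256). Under stimulation Vegfa rose in oligodendrocytes by 0.93 ± 0.21 (edgeR adjusted p = 0.00543, and 0.0505 without PBS stim replicate 3), with overlapping libraries. Of the receptors of extracellular CIRP, Tlr4 and its partner Ly96 were tested in 3 pairs. In PBS nonstim microglia Ly96 had 44.0 ± 8.12 CPM, against 32.4 ± 2.76 in those of Cisplatin nonstim (-0.45 ± 0.15), and Tlr4 had 33.8 ± 3.35 against 24.2 ± 5.36 (-0.54 ± 0.20), with edgeR adjusted p of 0.0868 and 0.139. The groups do not overlap for either gene, and neither was called by edgeR, DESeq2 or limma-voom, while both had an unadjusted edgeR p under 0.05. Stimulation in cisplatin mice called 0 pairs by edgeR in these 4 lists other than the chaperones. An unadjusted edgeR p under 0.05 was found for 17 of 139 RNA-recognition-motif pairs, a higher share than the 6.66% of all pairs. The upstream list had 7 of 127, a lower share, the target list 4 of 51, near it, and the receptor list 0 of 3. Pairs of a list share libraries. The smallest p was that of the splicing factor gene Sfpq in oligodendrocytes (-0.36 ± 0.11, edgeR adjusted p = 0.136). Next came the thioredoxin gene Txn1 in microglia (-0.43 ± 0.14, edgeR adjusted p = 0.396). DESeq2 and limma-voom also called 0 pairs there.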

How the data were processed

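Single-cell RNA libraries of dissociated hippocampus were prepared with a 10x 3' kit (v3.1), aiming at 5000 cells each, per the labels' protocols. The submitters' processing notes list Cell Ranger 5.0.0, Scanpy and mm10 with no roles. The authors deposited raw UMI counts per cell and gene for 19834 cells, with the cell types and clusters used here. Their doublet score was not used, and 0 deposited cells are marked as doublets. Counts depend on annotated transcript ends and say nothing of isoforms.

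Counts were summed per library and type over libraries with at least 10 cells. All genes of each of 9 types were fitted with the quasi-likelihood model of edgeR 4.0.16 (R 4.3.3, TMM, filterByExpr), with group and batch as terms. Benjamini-Hochberg adjustment ran over the genes of a type and comparison, with calls under 0.05. DESeq2 1.42.0 and limma 3.58.1 (voom) were alternatives. SDs are over libraries and SEs come from the model. With 3 libraries a group, p-values measure the spread between these libraries, 8 of which pool 2 animals. The fit was tested on simulated data.

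The genes, the lists and the rule for naming were chosen with earlier results of these data known. The rule names both genes everywhere, the called members of each list (at most 4 per type, by smallest p), 2 with the smallest p where none was called, and the 5 genes most like each in pattern, leaving out predicted genes. The text prints a selection, and some named by the rule are not reported here. Likeness used log2(CPM + 1), with 1 as pseudocount. Deviations of whole-library sums from the group means over 9799 genes were compared between same-numbered libraries. Stimulated and unstimulated libraries correlated at 0.60, 0.67 and 0.23 in the cisplatin arm and at 0.75, 0.39 and 0.50 in the PBS arm. Cisplatin stim and PBS stim libraries gave 0.64, 0.28 and 0.24. The numbers were taken to pair libraries in these 3 comparisons, where every value was over 0.1. That cut alone does not show pairing. In the cisplatin arm each library was most like the one of its own number. PBS nonstim replicate 3 was most like PBS stim replicate 2. Cisplatin stim replicates 2 and 3 were most like PBS stim replicates 3 and 2. This pairing rests on the data, and number 1 also marks the batch. Between Cisplatin nonstim and PBS nonstim they gave 0.46, 0.17 and -0.06 and were not taken to pair.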

Additional observations from a re-analysis of the deposited data

How the results depend on the processing

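Rbm3 and Cirbp were higher in cisplatin than in PBS mice in 17 of 18 gene and type pairs without stimulation and in 18 of 18 under it. Every alternative run stayed within 1.5 times these counts, which describe the comparison that chose the genes. The first batch alone, with 1 library per group and no test, had 8 of 18 pairs higher without stimulation. The 1 call for stimulation in cisplatin mice became 0 without a batch term, with the replicate block, in the second batch alone and without cells over 10% mitochondrial UMIs, became 5 without a filter on low counts, and ranged from 0 to 1 when 1 library was left out. The 1 call between batches became 3 without the filter and ranged from 1 to 4 when 1 library was left out. The 6 related pairs called between cisplatin and PBS without stimulation became 11 with DESeq2, 11 with at least 20 cells, 0 without a batch term, 28 without the filter, 1 with the ribosomal RNA-like share as covariate and 74 in the second batch alone, and ranged from 2 to 32 when 1 library was left out. The 2 related pairs called for stimulation in cisplatin mice became 1 without a batch term and 6 without the filter, and ranged from 0 to 2 when 1 library was left out. The replicate block, which pairs libraries by number, gives no value between batches, whose term it replaces. It ended no call of a named related gene in the comparisons taken to pair. Rbm3 changed sign under stimulation in cisplatin mice in pericytes, with -0.033 at 20 or more cells and -0.035 in the second batch alone, and a range of -0.020 (without Cisplatin nonstim replicate 1) to 0.24 when 1 library was left out. In immune cells that range was -0.044 (without Cisplatin stim replicate 1) to 0.72. The cause of these changes was not tested, except that leaving out libraries, cells or the filter changes how many samples or genes are fitted. The alternative without cells over 10% mitochondrial UMIs was not run for neurons, which kept too few libraries. Depth limits the rarest types, where a library held as few as 2 UMIs of Rbm3 (immune cells). The interaction, the related counts in other comparisons and the chaperone list on its own were chosen after seeing the data.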
